A study of Mus musculus with 24 samples.

Results

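Gene expression was compared between Gpr39 knockout (KO) and wild-type (WT) mpkCCD cells after both had received cpd1324, an agonist of the receptor GPR39. The members were the 6 KO and the 6 WT libraries whose column names carry the agonist treatment, 12 of the 24 libraries of the series, and sample titles gave each library its genotype, treatment and number. mpkCCD is an immortalised epithelial line from the mouse kidney cortical collecting duct that forms tight, polarized layers. The labels describe the WT cells as not transformed, and the KO cells as a Gpr39 knockout of the same line. All cells stood on permeable inserts for 9 days in medium free of the vasopressin analogue dDAVP and then for 24 h in a simpler medium. The agonist groups were given 1 µM cpd1324 with 10 µM ZnCl2 on the basolateral side for 2 h. The 6 WT and 6 KO vehicle libraries, used here beside the agonist libraries, came from cells given 0.1% DMSO with the same 10 µM ZnCl2, so zinc was present in all 4 groups. Poly(A)-selected RNA was sequenced. The labels name neither the number of KO clones nor the edited part of Gpr39, so genotype and any difference between cell clones cannot be told apart. Nothing says that the 6 libraries of a group came from separate cultures, so p-values measure the spread between these libraries only.

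GPR39 is a G protein-coupled receptor that senses extracellular zinc. Such receptors can couple to Gq, Gs and G12/13 proteins and so reach phospholipase C and calcium, cyclic AMP, and the actin cytoskeleton. Activation of these routes usually raises, within an hour or so, the immediate-early genes, which encode transcription factors such as FOS and EGR1 and need no new protein for their induction. Their targets, among them secreted growth factors, cytokines and the phosphatases that shut off ERK signalling, follow later. In the collecting duct, principal cells set water permeability through the vasopressin receptor V2 and the water channel AQP2.

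Expression is given in scaled units, the authors' deposited signal per base of gene length multiplied by 1 constant so that the mean library total was 1000000. Differences are KO minus WT on a log2(scaled units + 0.5) scale with the moderated standard error (SE) from limma, and calls were made at an adjusted p below 0.05 (Benjamini-Hochberg, over the 11557 rows tested). Recovered read totals ran from 33.4 to 43.3 M in the WT agonist libraries and from 29.8 to 39.5 M in the KO agonist libraries. Each agonist library correlated with those of its own group at a median r of 0.9929 to 0.9959 across genes and with the other agonist group at 0.9467 to 0.9582. KO agonist library 2 had 0.9932 with its own group, against 0.9954 to 0.9959 in the other 5 KO agonist libraries. The WT agonist libraries had 0.9929 to 0.9942. The 120 genes covered by the naming rule or named after their values were seen kept their direction and call without KO agonist library 2. Nearly all of them were chosen for small adjusted p or far differences, so this is a weak check. The summed level of all genes was 1141980 ± 43437 (SD, n = 6) in WT and 934771 ± 21883 (SD, n = 6) in KO agonist libraries. Setting every library to the same total shifts the differences between these groups upward by a nearly constant amount, and counts on that scale, written as at equal totals, are given beside those of each pathway list. Over all 11557 rows that scale gave 7272 higher and 1726 lower in KO cells, with a median of 0.28, against which those list counts are to be read.

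Under agonist, 7406 rows (64.1%) were called between KO and WT cells, 3695 of them higher in KO cells (32.0%) and 3711 lower (32.1%). Counts of the gene lists on the authors' scale are to be read against these shares. The far differences were mostly on the lower side. At least 4-fold differences numbered 17 higher and 182 lower in KO cells, and at least 2-fold differences 250 higher and 566 lower. The 6 KO and 6 WT values did not overlap at all in 5350 rows (46.3%). Higher calls made up 49.9% of all calls on the authors' scale and 80.8% (7272 higher and 1726 lower) with the same total in every library, which moved the median difference of all rows from 0.01 to 0.28 in log2. With quantile scaling the higher share was 60.2% and the median 0.07. The strongly lower genes described below kept their direction and call under both rescalings, whereas list medians near 0 could change sign, which is stated beside each that did.

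Gpr39 itself (chromosome 1) was lower in every KO library. It ranged from 27.1 to 31.1 with a median of 29.2 scaled units in WT agonist libraries, and from 8.20 to 10.6 with a median of 9.22 in KO agonist libraries. The groups did not overlap, and the difference was -1.59 (SE 0.06, adjusted p = 1.10e-17). Between 387 and 566 reads per KO library still fell on Gpr39, against 1103 to 1431 in WT libraries, so the transcript was reduced and not missing. Because the edited part is not given, this checks the label only as a lower transcript level. Under vehicle Gpr39 stood at 21.6 ± 1.61 (SD, n = 6) in WT and 9.37 ± 0.645 (SD, n = 6) in KO libraries, a difference of -1.16. The difference under agonist exceeded that under vehicle (interaction -0.43, adjusted p = 0.000191), but this interaction was not called with the same total in every library.

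**Figure D1:**
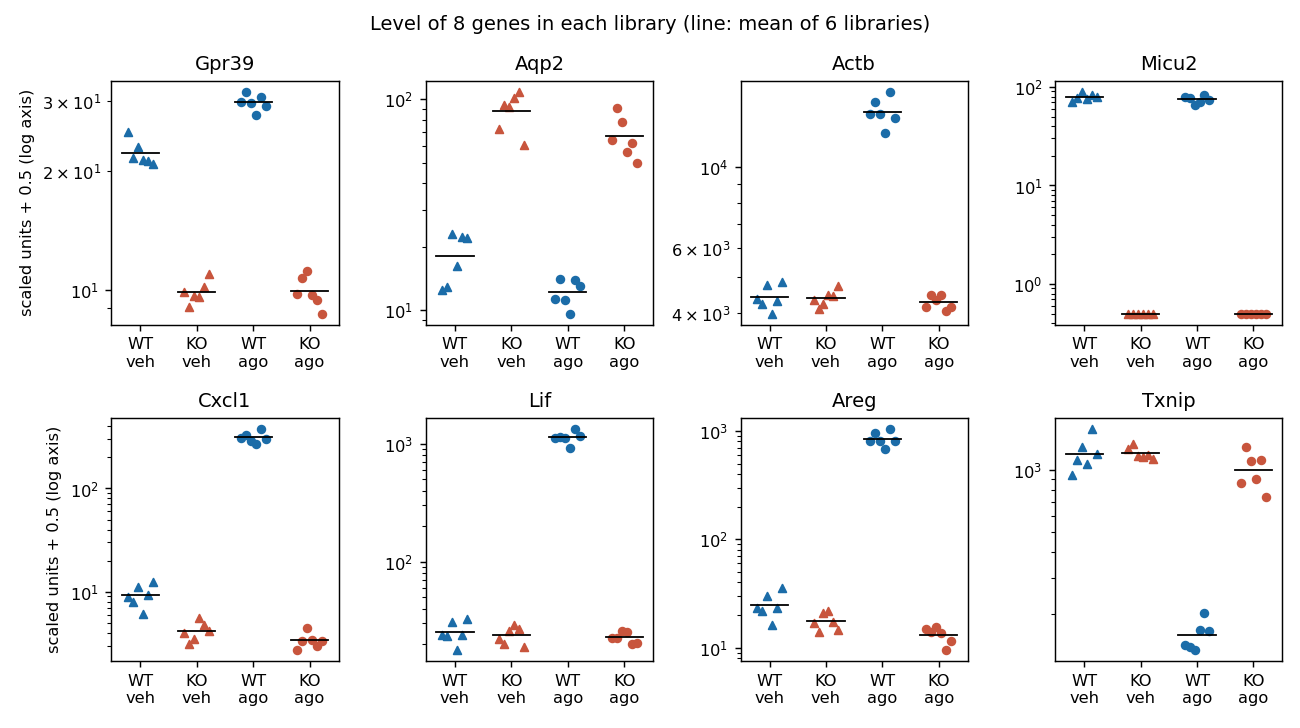
Levels of 8 genes in each of the 24 libraries (vertical log axis, scaled units + 0.5; triangles vehicle, circles agonist, blue WT, red KO; lines are means of 6 libraries). Gpr39 was lower and Aqp2 higher in KO cells under both treatments, Micu2 was at 0 in every KO library, and Actb, Cxcl1, Lif and Areg were high, and Txnip low, in the 6 WT agonist libraries alone.

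Aqp2, the vasopressin-regulated water channel (chromosome 15), was higher in KO cells. Its level was 9.16 to 13.5 (median 11.7) scaled units in WT and 49.4 to 90.8 (median 62.5) in KO agonist libraries, without overlap. KO minus WT was 2.44 (SE 0.17, adjusted p = 3.07e-12) under agonist and 2.29 under vehicle. The interaction of 0.15 was not called (adjusted p = 0.667). Hsd11b2, the enzyme that shields the mineralocorticoid receptor from glucocorticoids, had the same pattern at 55.9 to 69.9 (median 61.0) in WT and 189 to 317 (median 224) in KO libraries, with 1.89 (SE 0.12) under agonist and 1.94 under vehicle. Scnn1b, the beta subunit of the epithelial sodium channel, went the other way at 5.28 to 7.79 (median 6.56) in WT and 1.42 to 3.12 (median 1.91) in KO libraries, a difference of -1.48 (SE 0.13). Scnn1b was -1.83 under vehicle, and the interaction was called for none of these 3 genes.

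Of the 30 genes on the principal cell and vasopressin response list, 21 were tested: 7 were higher and 6 lower in KO cells, a share near that of all rows, with a median of 0.02. At equal totals 14 were higher and 5 lower, with a median of 0.29. Avpr2, the V2 receptor, ranged from 42.1 to 64.0 in WT and from 80.9 to 130.5 scaled units in KO agonist libraries. Scnn1a and Scnn1g, the other subunits of the sodium channel, ranged from 313.8 to 395.3 and from 6.25 to 19.8 in WT libraries, and from 251.8 to 281.4 and from 20.4 to 37.1 in KO libraries. Krt18, an epithelial keratin, was 5504 to 7433 (median 6287) in WT and 1655 to 1982 (median 1856) in KO libraries, with -1.78 (SE 0.07) under agonist and -0.20 under vehicle. Several principal cell genes were thus detected in both genotypes. Other listed genes, among them Krt8, Aqp4, Gata3, Kcnj1, Hoxb7 and Tfap2b, had no row of their own name and could not be analysed.

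A few transcripts were near or at 0 in KO cells whatever the treatment. Micu2 (chromosome 14), a regulator of the mitochondrial calcium uniporter, was 65.6 to 83.0 (median 75.1) scaled units in WT agonist libraries and 0 in all 6 KO agonist and all 6 KO vehicle libraries. With 3 reads over the group as the limit that a count of 0 allows, Micu2 was at least 3391-fold lower in KO cells, a bound that covers counting error only. Dcp1b, a co-activator of mRNA decapping, and Parp11, an ADP-ribosyltransferase, both on chromosome 6, were also at 0 in all 12 KO libraries. They were named after their values were seen. Dcp1b was 5.97 to 7.03 and Parp11 1.98 to 2.61 in WT agonist libraries, which makes them at least 228-fold and 79.3-fold lower in KO cells. Scand1 (chromosome 2), which encodes a SCAN-domain protein, had 391 to 586 (median 461) in WT and 6.13 to 8.04 (median 7.00) in KO agonist libraries, a difference of -5.99 (SE 0.09) under agonist and -6.14 under vehicle.

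Most of the strongest differences under agonist had no counterpart of that size under vehicle. Of the 182 genes at least 4-fold lower in KO cells under agonist, 107 were called lower under vehicle, 42 of them by at least 4-fold, 55 were not called there, and 20 were called there in the opposite direction. Their median was -0.48 under vehicle. Of the 17 genes at least 4-fold higher, 14 were also at least 4-fold higher under vehicle, with a median there of 2.29. Over all rows, 5525 (47.8%) were called between genotypes under vehicle. The agonist and vehicle comparisons use separate libraries: 3426 rows were called in the same direction in both, 46.3% of the agonist calls and 62.0% of the vehicle calls, and 652 in opposite directions, 8.80% and 11.8% of the same lists. The interaction, which tests whether the genotype difference itself differed between treatments, was called in 4746 rows (41.1%), 2265 upward (19.6%) and 2481 downward (21.5%).

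**Figure D2:**
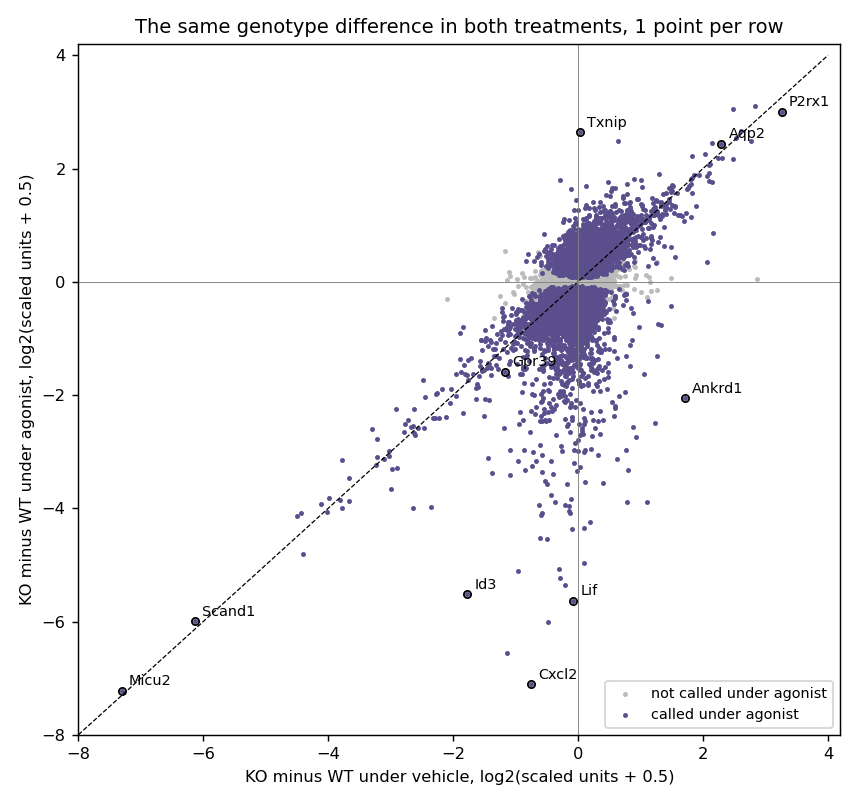
KO minus WT under agonist (vertical) against KO minus WT under vehicle (horizontal), both log2(scaled units + 0.5), 1 point for each of the 11557 rows; dark points were called under agonist and the dashed line marks equal differences. Micu2, Scand1, Aqp2 and P2rx1 lie near the line, while Cxcl2, Lif and Txnip lie far from 0 under agonist (-7.11, -5.64 and 2.64) and nearer to it under vehicle (-0.75, -0.08 and 0.02).

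Besides Micu2 and Scand1, which differed as far under vehicle, the genes furthest lower under agonist included several for secreted signals. Cxcl1 and Cxcl2 are neutrophil-attracting chemokines on chromosome 5. Cxcl1 was 270 to 378 (median 304) scaled units in WT and 2.21 to 3.91 (median 2.83) in KO agonist libraries. Cxcl2 was 203 to 322 (median 275) in WT and 0.934 to 1.74 (median 1.54) in KO libraries, the latter resting on 9 to 16 reads per library. Neither gene's groups overlapped. The differences were -6.55 (SE 0.15, adjusted p = 5.60e-22) and -7.11 (SE 0.17, adjusted p = 3.73e-21), beside -1.14 and -0.75 under vehicle. For Cxcl1, agonist minus vehicle was 5.10 in WT and -0.31 in KO cells, and these contrasts share libraries with the genotype contrasts.

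Among the other cytokines, Lif (chromosome 11), a member of the interleukin-6 family, was 921 to 1336 (median 1132) in WT and 19.5 to 25.1 (median 22.1) in KO agonist libraries. KO minus WT was -5.64 (SE 0.12, adjusted p = 3.97e-22) under agonist and -0.08 under vehicle (adjusted p = 0.599). The KO level under agonist, 22.3 ± 2.38 (SD, n = 6), lay close to that of WT and KO cells under vehicle, 24.9 ± 5.49 and 23.3 ± 4.05 (SD, n = 6 each). Il1a, an interleukin-1 that epithelia keep as an alarm signal, was 16.8 to 28.7 (median 21.5) in WT and 0.0512 to 0.364 (median 0.187) in KO libraries, -4.96 (SE 0.14). Tnf was low in both, 8.38 to 13.9 (median 13.1) in WT, while the 6 KO libraries held 5 reads together. Its difference of -4.52 depends on the pseudocount for that reason.

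Of the 22 chemokine and interleukin-1 genes listed, 13 were tested: 8 were lower and 3 higher in KO cells, with a median of -1.48 under agonist and 0.10 under vehicle. At equal totals 8 were lower and 4 higher. Ackr3, a scavenging chemokine receptor, was among the higher ones at 3.74 to 8.54 (median 6.47) in WT and 32.2 to 45.5 (median 35.0) in KO libraries, 2.48 (SE 0.15). Under vehicle its difference was 0.64. In the interleukin-6 family list 10 of 15 genes were tested, 7 lower and 1 higher, with a median of -0.24. At equal totals 4 were lower and 5 higher, and the median became 0.01. Stat3, which carries signals from this receptor family, was -1.03 (SE 0.04) under agonist and -0.29 under vehicle, and its feedback inhibitor Socs3 was -1.05 (SE 0.09) and -0.39.

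Ligands of the EGF receptor formed another group of strongly lower genes. Areg (amphiregulin, chromosome 5) was 678 to 1045 (median 804) in WT and 8.96 to 15.1 (median 13.3) in KO agonist libraries, a difference of -6.01 (SE 0.16, adjusted p = 1.04e-20) with -0.49 under vehicle. Ereg (epiregulin) was 178 to 272 (median 212) in WT and 9.14 to 10.7 (median 10.1) in KO libraries, -4.36 (SE 0.11). Hbegf, the heparin-binding ligand, was 1083 to 1560 (median 1270) in WT and 133 to 211 (median 156) in KO libraries, -3.01 (SE 0.12). Under vehicle Ereg and Hbegf were not called (-0.09 and 0.09). Tgfa, a further ligand, differed by a like amount in both treatments, -0.48 (SE 0.05) under agonist and -0.45 under vehicle. Across the list, 6 of 10 tested genes were lower and 3 higher, so the far differences were those of the named ligands and not of the list as a whole, whose median was -0.30. At equal totals 4 were lower and 4 higher, with a median of -0.02.

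**Figure D3:**
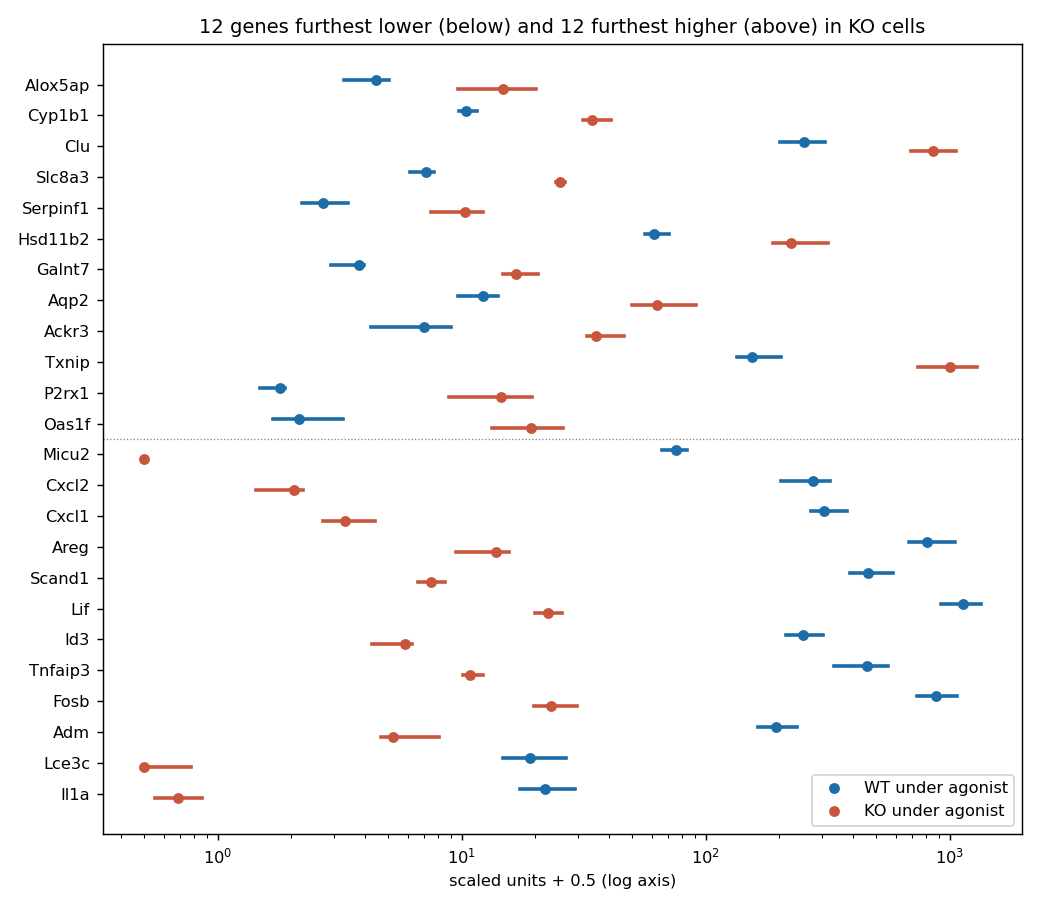
The 12 genes furthest lower (below the dotted line) and the 12 furthest higher (above it) in KO cells under agonist, as named by the rule; points are medians and bars run from the lowest to the highest of 6 libraries (horizontal log axis, scaled units + 0.5; blue WT, red KO). In none of the 24 genes do the WT and KO bars overlap.

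AP-1 dimers of FOS, JUN and related proteins bind the sequence TGANTCA and are among the earliest factors induced by growth signals. All 8 tested AP-1 genes of 14 listed were lower in KO cells under agonist, with a median of -2.88, and under vehicle none was lower, 1 was higher and the median was -0.11. The 8 were Fos, Fosb, Fosl1, Fosl2, Atf3, Batf3, Maff and Mafk, so no JUN family gene was among them. At equal totals all 8 were lower under agonist. Fosb (chromosome 7) was 734 to 1071 (median 879) in WT and 19.2 to 29.2 (median 22.7) in KO agonist libraries, -5.23 (SE 0.13, adjusted p = 4.77e-21). Fosl1 was 145 to 220 (median 179) in WT and 9.17 to 13.8 (median 11.7) in KO libraries, -3.89 (SE 0.11), although under vehicle it was higher in KO cells by 0.79. Fosl2 and the small MAF protein gene Maff followed at -2.41 (SE 0.08) and -3.21 (SE 0.12), and neither was called under vehicle.

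The EGR, NR4A, IER and KLF immediate-early genes were lower in KO cells throughout. All 16 tested of 19 listed were called under agonist, with non-overlapping groups in all 16 and a median of -1.70, and all 16 were lower at equal totals. Of all rows 64.1% were called and 46.3% did not overlap, and this list was chosen with earlier results of these data known. Unlike the AP-1 genes, 10 of the 16 were also lower under vehicle, where 3 were higher and the median was -0.42. Nr4a1, an orphan nuclear receptor gene, was 1617 to 2227 (median 1796) in WT and 82.8 to 145 (median 110) in KO libraries, -4.09 (SE 0.15) with -0.58 under vehicle. Arc, best known from neuronal activity, was -3.57 (SE 0.12). Egr3 was -3.25 (SE 0.14) and Klf6 -2.88 (SE 0.11), beside -0.74 and -0.62 under vehicle.

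ERK phosphorylates many immediate-early factors, and its own signal is cut by dual-specificity phosphatases and other inhibitors that it induces. Of 21 such feedback genes listed, 19 were tested; 17 were lower and none higher in KO cells under agonist, with a median of -1.08, while 7 were higher and 2 lower under vehicle with a median of 0.09. The interaction was called downward in the same number, 17. At equal totals 14 were lower and none higher under agonist. Dusp5, a nuclear ERK phosphatase on chromosome 19, was 1534 to 2230 (median 1792) in WT and 73.2 to 132 (median 99.1) in KO libraries, -4.24 (SE 0.14, adjusted p = 1.57e-18) with 0.19 under vehicle. Phlda1, a pleckstrin-homology protein gene, was 2140 to 3198 (median 2560) in WT and 143 to 198 (median 172) in KO libraries, -3.95 (SE 0.12). Dusp10, a phosphatase of p38 and JNK, was -3.33 (SE 0.10), and Errfi1, an inhibitor of the EGF receptor kinase, -2.69 (SE 0.08).

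NF-kB subunits are held in the cytoplasm by inhibitors whose genes NF-kB itself switches on. In this list 11 of 15 tested genes were lower and 2 higher in KO cells, with a median of -1.25 under agonist and -0.11 under vehicle. At equal totals 11 were lower and 4 higher. Tnfaip3 (A20, chromosome 10), a ubiquitin-editing inhibitor of the pathway, was 333 to 557 (median 456) in WT and 9.59 to 11.6 (median 10.3) in KO libraries. Its difference was -5.35 (SE 0.10, adjusted p = 1.40e-23), with -0.21 under vehicle (adjusted p = 0.0884). Nfkbia and Nfkbid, which encode inhibitors of the same family, were -2.24 (SE 0.07) and -3.35 (SE 0.12), beside -0.55 and -0.58 under vehicle.

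Promoter sequences were read for these genes from RefSeq (GRCm38.p6), taking the 250 bases before the listed start on the gene's strand; 8680 of the 11014 tested rows with a single name had an entry. Motifs were searched on both strands: AP-1 as TGANTCA, the cyclic AMP response element as TGACGTCA, and by name the CArG box of SRF and the NF-kB site. A match describes the letters only and is no bound site. The 6 promoters below were chosen after the matches were seen, because each gene was at least 4-fold lower in KO cells under agonist and not called lower by that size under vehicle, and because together they show all 4 motifs. Capitals mark the matches.
Tnfaip3, chr10:19015411-19015660, minus strand, AP-1 at -136 and NF-kB at -125 and -12: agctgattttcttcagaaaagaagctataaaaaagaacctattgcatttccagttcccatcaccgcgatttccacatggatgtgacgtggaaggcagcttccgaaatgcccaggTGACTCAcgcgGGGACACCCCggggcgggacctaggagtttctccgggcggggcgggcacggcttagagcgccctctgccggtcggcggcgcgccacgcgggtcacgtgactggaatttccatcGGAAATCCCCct
Lif, chr11:4257318-4257567, plus strand, AP-1 at -228: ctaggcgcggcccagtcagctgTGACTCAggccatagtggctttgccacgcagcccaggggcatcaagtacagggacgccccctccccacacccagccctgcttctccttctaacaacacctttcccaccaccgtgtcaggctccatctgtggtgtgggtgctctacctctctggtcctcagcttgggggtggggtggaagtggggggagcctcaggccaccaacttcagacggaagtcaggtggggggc
Areg, chr5:91139349-91139598, plus strand, cyclic AMP response element at -61: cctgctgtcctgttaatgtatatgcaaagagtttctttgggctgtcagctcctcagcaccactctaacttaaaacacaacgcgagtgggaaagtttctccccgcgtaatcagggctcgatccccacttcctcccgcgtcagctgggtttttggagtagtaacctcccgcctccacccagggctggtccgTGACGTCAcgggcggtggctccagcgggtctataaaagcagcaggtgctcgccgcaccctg
Cxcl1, chr5:90890995-90891244, plus strand, overlapping NF-kB matches at -71 and -70: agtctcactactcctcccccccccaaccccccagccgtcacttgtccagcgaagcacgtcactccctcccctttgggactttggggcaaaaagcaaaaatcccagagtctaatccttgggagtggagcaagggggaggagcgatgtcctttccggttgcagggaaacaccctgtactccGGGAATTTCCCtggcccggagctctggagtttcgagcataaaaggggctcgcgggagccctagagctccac
Srf, chr17:46556163-46556412, minus strand, CArG boxes at -82 and -62: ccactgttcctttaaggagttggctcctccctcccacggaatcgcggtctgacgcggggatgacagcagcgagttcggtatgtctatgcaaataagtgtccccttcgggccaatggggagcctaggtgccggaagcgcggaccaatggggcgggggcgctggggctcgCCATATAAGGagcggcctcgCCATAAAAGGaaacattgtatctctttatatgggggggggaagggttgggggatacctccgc
Dusp5, chr19:53528895-53529144, plus strand, CArG boxes at -82 and -72: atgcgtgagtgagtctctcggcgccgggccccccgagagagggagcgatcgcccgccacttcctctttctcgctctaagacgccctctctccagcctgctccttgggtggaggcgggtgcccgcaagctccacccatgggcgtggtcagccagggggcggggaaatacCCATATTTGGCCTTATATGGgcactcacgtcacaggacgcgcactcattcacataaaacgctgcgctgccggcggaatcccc

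In these sequences the positions give the first base of a match counted back from the start. Across all 8680 promoters of this length the AP-1 motif was present in 4.27%, the cyclic AMP response element in 2.89%, the CArG box in 1.13% and the NF-kB site in 4.41%. Among the 134 promoters of genes at least 4-fold lower in KO cells under agonist the shares were 12.7%, 5.22%, 5.97% and 11.2%. In the 43 of these whose gene was not called under vehicle, AP-1 was found in 23.3% and the NF-kB site in 16.3%. In the 26 whose gene was at least 4-fold lower under vehicle as well, AP-1 was found in 3.85% and the NF-kB site in 7.69%. These shares are descriptions of sets of unequal size and were not tested.

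Serum response factor, SRF, works with cofactors of the MRTF family that sense free actin, and it drives actin and adhesion genes through the CArG box. Of 23 SRF and MRTF targets listed, 19 were tested; 17 were lower and none higher in KO cells under agonist, with a median of -1.02 against -0.01 under vehicle. At equal totals 16 were lower and 2 higher. Actb, beta-actin (chromosome 5), was 12398 to 16039 (median 13984) scaled units in WT and 4038 to 4487 (median 4240) in KO agonist libraries. Its groups were far apart under agonist, -1.73 (SE 0.06, adjusted p = 1.66e-18), and not called under vehicle, -0.01 (adjusted p = 0.914). Agonist minus vehicle for Actb was 1.68 in WT and -0.04 in KO cells. Srf itself was 350 to 447 (median 388) in WT and 79.8 to 101 (median 86.5) in KO libraries, -2.14 (SE 0.08) and 0.03 under vehicle. Vcl (vinculin) and Zyx (zyxin), which link actin to adhesion sites, were -2.07 (SE 0.08) and -2.09 (SE 0.06).

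Smaller differences in the same direction ran through the actin machinery. Of 31 tested genes for filament assembly and contraction, 23 were lower and 4 higher in KO cells, with a median of -0.41. At equal totals 14 were lower and 8 higher, with a median of -0.12. Arpc4 and Actr3, subunits of the ARP2/3 complex that nucleates branched filaments, were -1.22 (SE 0.05) and -1.14 (SE 0.06). Arpc4 was also lower under vehicle (-0.52), whereas Actr3 was not called there (0.05). Lima1, which stabilises filaments, was 335 to 391 (median 359) in WT and 210 to 229 (median 216) in KO libraries, and Ezr (ezrin), which ties actin to the apical membrane, was -0.85 (SE 0.05).

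Regulators of actin shape and of adhesion also differed. Rnd1, a small GTPase that loosens actin structures, was 203 to 304 (median 233) in WT and 19.0 to 22.2 (median 19.6) in KO libraries, -3.57 (SE 0.12). Cdc42ep3 and Cdc42ep1, effectors of CDC42, were -2.46 (SE 0.07) and -1.34 (SE 0.06), and these 3 genes were not called under vehicle. Of 25 tested focal adhesion genes 16 were lower and 2 higher, with a median of -0.34. At equal totals 12 were lower and 7 higher, with a median of -0.05. Fermt2 (kindlin-2), an integrin activator, was -1.32 (SE 0.06), and the integrin subunit Itgav was -1.35 (SE 0.07) under agonist and 0.22 under vehicle.

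YAP and TAZ are co-activators that respond to cell tension. Among 14 tested targets 8 were lower and 1 higher in KO cells under agonist (median -0.43), whereas under vehicle 7 were higher and 4 lower (median 0.19). At equal totals 7 were lower and 6 higher under agonist, with a median of -0.14. Ccn1, a matrix-associated signalling protein on chromosome 3, was 5458 to 7527 (median 6189) in WT and 607 to 1063 (median 828) in KO agonist libraries, -2.97 (SE 0.11) against 0.76 under vehicle. F3, tissue factor, the starter of coagulation, was 2349 to 3607 (median 2770) in WT and 268 to 412 (median 304) in KO libraries, -3.16 (SE 0.12). Gadd45b was -2.65 (SE 0.09), and both F3 and Gadd45b were lower under vehicle too (-0.67 and -0.76).

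**Figure D4:**
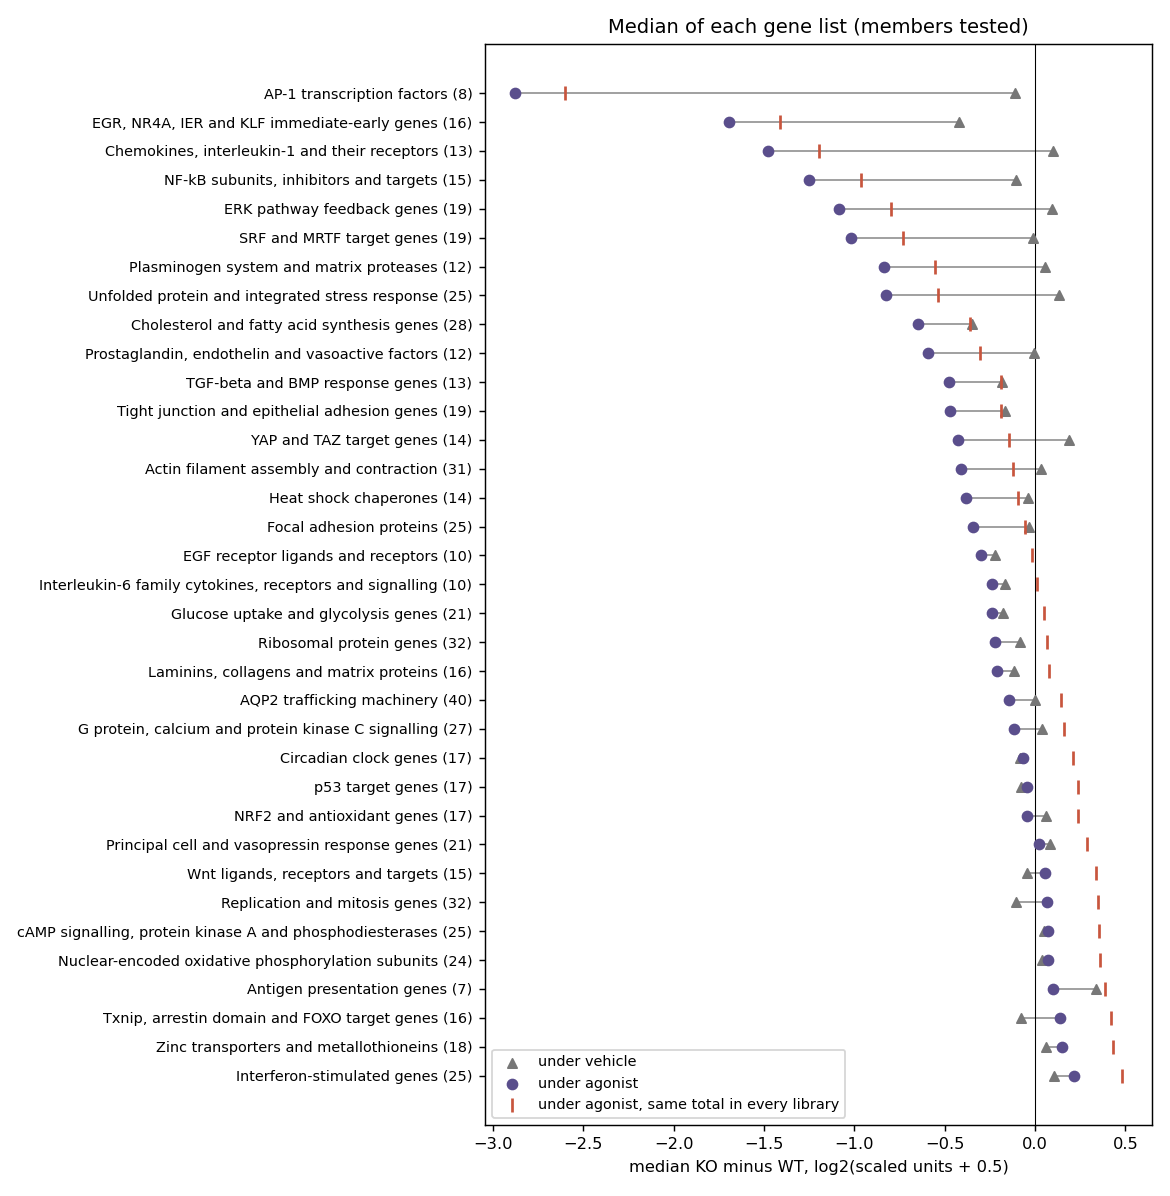
Median KO minus WT difference of the gene lists reported here that had more than 6 tested members, on the log2(scaled units + 0.5) scale; circles are agonist, triangles vehicle, and red ticks agonist with the same total in every library; numbers of tested members are in parentheses. The AP-1 median was -2.88 under agonist and -0.11 under vehicle, and the lists from the interleukin-6 family downward to NRF2 have ticks on the other side of 0 from their circles.

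Genes that respond to TGF-beta and BMP did not share a direction: 8 of 13 tested were lower and 4 higher, median -0.48. At equal totals 6 were lower and 5 higher, median -0.19. Id3 (chromosome 4), an inhibitor of basic helix-loop-helix factors, was 213 to 301 (median 249) in WT and 3.79 to 5.75 (median 5.34) in KO libraries, -5.52 (SE 0.17, adjusted p = 2.89e-19). It was lower under vehicle as well (-1.77), and the interaction was -3.74 (adjusted p = 3.02e-12). Its relative Id2 was on the opposite side, 121 to 157 (median 151) in WT and 367 to 427 (median 386) in KO libraries, 1.46 (SE 0.08) with 0.95 under vehicle. Tgif1, a repressor of SMAD signalling, was -2.13 (SE 0.08).

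The plasminogen system and matrix proteases cut proteins at the cell surface. Of 12 tested genes 10 were lower in KO cells and 2 higher, with a median of -0.84 against 0.06 under vehicle. At equal totals 7 were lower and 2 higher, with a median of -0.55. Adamts1, a secreted metalloprotease, was 1168 to 1735 (median 1426) in WT and 72.0 to 92.7 (median 80.6) in KO libraries, -4.11 (SE 0.11). Plaur, the urokinase receptor, was -2.80 (SE 0.11) and not called under vehicle (0.01). Mmp13, a collagenase, was low in both at 5.66 to 8.98 (median 7.13) and 0.149 to 0.672 (median 0.377). Of 16 tested laminins, collagens and other matrix proteins 7 were lower, 1 higher and 8 not called; at equal totals 3 were lower and 4 higher, and the median of -0.21 became 0.07. Thbs1 (thrombospondin-1) was -2.71 (SE 0.08) under agonist and 0.22 under vehicle.

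Tight junctions seal the paracellular path of the collecting duct. Of 19 tested junction and epithelial adhesion genes 14 were lower and 2 higher in KO cells, with a median of -0.47 under agonist and -0.17 under vehicle. At equal totals 12 were lower and 5 higher, with a median of -0.19. Cldn1 (claudin-1) was 22.6 to 43.3 (median 35.5) in WT and 3.96 to 5.72 (median 4.57) in KO libraries, -2.71 (SE 0.12), and was not called under vehicle (0.03). Ocln (occludin) was 84.9 to 110 (median 99.0) in WT and 45.9 to 50.6 (median 48.2) in KO libraries, -1.01 (SE 0.06).

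AQP2 reaches the apical membrane in vesicles and is retrieved by endocytosis. In the trafficking list 21 of 40 tested genes were lower and 8 higher, with a median of -0.14. That balance rests on the scale: at equal totals 12 were lower and 20 higher, with a median of 0.14, and with quantile scaling 15 were lower and 17 higher, with a median of -0.02. Cav1 (caveolin-1) was -1.32 (SE 0.08), and Cltb, a clathrin light chain, was -0.80 (SE 0.05) with -0.40 under vehicle. Cltb's interaction of -0.41 was not called with the same total in every library. Of 25 tested genes for cyclic AMP signalling 9 were higher and 8 lower, median 0.07, and at equal totals 15 were higher and 4 lower, median 0.36. These shares were near those of all rows, 32.0% higher and 32.1% lower, or 7272 and 1726 of 11557 at equal totals. Sik1, a kinase gene induced by CREB, was -1.92 (SE 0.07), the scaffold Akap12 -1.56 (SE 0.09) and the phosphodiesterase Pde4b -2.44 (SE 0.14), the last at 10.4 to 20.3 (median 15.0) in WT and 1.96 to 3.61 (median 2.11) in KO libraries.

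G protein, calcium and protein kinase C genes were divided, 11 lower and 7 higher of 27 tested, with a median of -0.12. At equal totals 6 were lower and 14 higher, and the median became 0.16. Rgs2, which shortens Gq signals, was 9.43 to 13.2 (median 10.8) in WT and 1.41 to 3.41 (median 2.27) in KO libraries, -2.07 (SE 0.17) with -1.50 under vehicle. Rcan1, an inhibitor of calcineurin, was -1.45 (SE 0.15) under agonist and was not called under vehicle (0.18).

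Metallothioneins bind zinc inside the cell and transporters of the SLC30 and SLC39 families move it across membranes. Of 18 tested zinc transporters and metallothioneins 7 were higher and 5 lower in KO cells, median 0.15, and at equal totals 13 were higher and 1 lower, median 0.43. Of all 11557 rows, 32.0% were higher and 32.1% lower, and at equal totals 7272 were higher and 1726 lower. Mt1 and Mt2, the metal-binding metallothioneins on chromosome 8, were higher: Mt1 at 3654 to 4640 (median 3931) in WT and 7105 to 10608 (median 8406) in KO agonist libraries, 1.10 (SE 0.11, adjusted p = 2.90e-09), and Mt2 at 1.15 (SE 0.12). Both were also higher under vehicle (0.52 and 0.48), and agonist minus vehicle was -0.91 for Mt1 in WT cells and -0.33 in KO cells. Slc30a1, the zinc exporter of the plasma membrane, was 22.3 to 29.4 (median 25.6) in WT and 36.3 to 49.4 (median 40.6) in KO libraries, 0.68 (SE 0.08).

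Genes for prostaglandins and other vasoactive factors contained several large differences, 8 lower and 3 higher of 12 tested, with a median of -0.59 under agonist and near 0 under vehicle. At equal totals 7 were lower and 5 higher, with a median of -0.30. Adm (adrenomedullin, chromosome 7) was 163 to 236 (median 193) in WT and 4.14 to 7.57 (median 4.70) in KO libraries, -5.11 (SE 0.16). Ptgs2 (cyclooxygenase-2) was 735 to 1080 (median 907) in WT and 88.2 to 124 (median 97.2) in KO libraries, -3.13 (SE 0.13), but 0.62 under vehicle, where it was higher in KO cells. Ptger4, a prostaglandin E2 receptor, was -3.34 (SE 0.11). Edn1 (endothelin-1), which restrains sodium and water reabsorption in the collecting duct, was 70.5 to 95.2 (median 83.2) in WT and 9.10 to 10.8 (median 10.2) in KO libraries, -2.96 (SE 0.07) with -1.08 under vehicle.

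Chaperones of the endoplasmic reticulum and genes of the integrated stress response were lower in KO cells in 23 of 25 tested and higher in none, with a median of -0.82. At equal totals 21 were lower and 2 higher, with a median of -0.54. Under vehicle 9 were higher and 3 lower with a median of 0.14, and the interaction was called downward in all 25. Hspa5 (BiP), the main chaperone of this compartment, was 3285 to 5271 (median 4002) in WT and 495 to 579 (median 525) in KO libraries, -2.96 (SE 0.09, adjusted p = 5.71e-19). Hsp90b1 and Manf were -1.41 (SE 0.06) and -1.32 (SE 0.06). Ppp1r15a, which reverses the phosphorylation of eIF2alpha, was -2.01 (SE 0.08) under agonist and 0.66 under vehicle.

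Heat shock chaperones were lower in 13 of 14 tested and higher in 1, with a smaller median of -0.38. At equal totals 6 were lower and 2 higher, and with quantile scaling 7 lower and 3 higher, with a median of -0.09 on both scales. Hspb1, a small heat shock protein, was 320 to 409 (median 378) in WT and 57.2 to 109 (median 95.7) in KO libraries, -2.05 (SE 0.11). Among 17 tested p53 targets 8 were lower and 6 higher, with a median of -0.05. At equal totals 8 were lower and 8 higher, and the median turned to 0.24, or 0.11 with quantile scaling. Cdkn1a (p21), the cell cycle inhibitor, was 1308 to 1766 (median 1490) in WT and 366 to 414 (median 391) in KO libraries, -1.94 (SE 0.06) with -0.24 under vehicle. Plk3 and Plk2, polo-like kinases induced by stress, were -2.99 (SE 0.10) and -2.28 (SE 0.08).

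The NRF2 and antioxidant list gave 6 higher and 6 lower of 17 tested, beside 32.0% and 32.1% of all rows. Its median was -0.04. At equal totals 12 were higher and 5 lower, with a median of 0.24, and with quantile scaling 10 were higher and 5 lower, with a median of 0.19. Hmox1 (heme oxygenase-1) was 2275 to 3460 (median 2629) in WT and 634 to 1173 (median 868) in KO libraries, -1.67 (SE 0.17) against 0.48 under vehicle. Txnrd1 (thioredoxin reductase) was -1.59 (SE 0.07).

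Of the 17 genes at least 4-fold higher in KO cells under agonist, Txnip was the 1 not called under vehicle. At least 2-fold higher genes not called under vehicle numbered 42. Txnip (chromosome 3) encodes a thioredoxin-binding arrestin that restrains glucose uptake. It was 134 to 203 (median 154) in WT and 738 to 1286 (median 1000) in KO agonist libraries, 2.64 (SE 0.12, adjusted p = 9.26e-16). Under vehicle Txnip was 1195 ± 222 (SD, n = 6) in WT and 1202 ± 80.3 (SD, n = 6) in KO libraries, 0.02 (adjusted p = 0.884). The KO agonist libraries were thus near the vehicle level, and the WT agonist libraries were below it, with agonist minus vehicle -2.91 in WT and -0.29 in KO cells. Its list, with arrestin-domain genes and FOXO targets, gave 8 higher and 4 lower of 16 tested with a median of 0.14, and 11 higher and 2 lower at equal totals with a median of 0.42. Pik3ip1, an inhibitor of PI3 kinase, was higher by 1.65 (SE 0.11) and Foxo1 lower, -0.77 (SE 0.06).

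The other genes furthest higher in KO cells mostly had the difference under vehicle too. P2rx1, an ATP-gated ion channel gene on chromosome 11, was 0.983 to 1.39 (median 1.29) in WT and 8.35 to 18.9 (median 14.0) in KO agonist libraries, 3.01 (SE 0.17) with 3.26 under vehicle. Galnt7, for an enzyme of mucin-type glycosylation, was 2.41 to 3.48 (median 3.28) in WT and 14.2 to 20.0 (median 16.2) in KO libraries, 2.26 (SE 0.10) with 2.03. Clu (clusterin), a secreted chaperone, was 201 to 309 (median 252) in WT and 691 to 1063 (median 853) in KO libraries, 1.77 (SE 0.10) with 2.09. Slc8a3, a sodium-calcium exchanger, was 1.84 (SE 0.06) with 1.82, Serpinf1 1.88 (SE 0.15) with 1.86 and Alox5ap, the 5-lipoxygenase activating protein, 1.72 (SE 0.14) with 1.81. Cyp1b1, a cytochrome P450, was an exception, with 1.73 (SE 0.08) under agonist, 0.79 under vehicle and a called interaction of 0.94.

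Interferon-stimulated genes were higher in 9 of 25 tested and lower in 2, median 0.22, with 14 not called. The higher share was near that of all rows, of which 32.0% were called higher and 32.1% lower. At equal totals 16 were higher and 1 lower, median 0.48. Beside that, 7272 of the 11557 rows were higher and 1726 lower on that scale, median 0.28. Oas1f (chromosome 5), of the antiviral oligoadenylate synthetase family, was 1.17 to 2.75 (median 1.66) in WT and 12.8 to 25.5 (median 18.7) in KO libraries, 3.05 (SE 0.16) with 2.49 under vehicle. Oas1a and Ifi27 were 1.06 (SE 0.14) and 1.14 (SE 0.18), beside 0.77 and 0.80 under vehicle. Reads can be shared among the near-identical Oas1 genes, so the values of Oas1f and Oas1a are uncertain. Irf1, an interferon regulatory factor, was 0.88 (SE 0.06) under agonist and -0.10 under vehicle, with an interaction of 0.97 (adjusted p = 8.26e-10). Of 7 tested antigen presentation genes 3 were higher and 2 lower, and at equal totals 6 were higher and none lower. Tap1 and Psmb9, for peptide transport and the immunoproteasome, were 1.08 (SE 0.09) and 1.28 (SE 0.15), with 0.64 and 1.03 under vehicle.

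Sterol synthesis genes were lower in both treatments. Under agonist 20 of 28 tested were lower and 3 higher (median -0.65), and under vehicle 20 were lower and 2 higher (median -0.35). At equal totals 16 were lower and 6 higher under agonist (median -0.36). Idi1, an isomerase of the path to cholesterol, was 277 to 428 (median 320) in WT and 90.8 to 129 (median 108) in KO agonist libraries, -1.62 (SE 0.10) with -0.94 under vehicle.

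In the list of glucose uptake and glycolysis genes 11 of 21 tested were lower and 4 higher, with a median of -0.24. At equal totals 5 were lower and 6 higher, with a median of 0.05, and with quantile scaling 5 were lower and 9 higher, with a median of 0.12. Slc2a1 (the glucose transporter GLUT1) was 251 to 339 (median 283) in WT and 106 to 143 (median 116) in KO libraries, -1.24 (SE 0.08) against 0.36 under vehicle, and Hk2 (hexokinase 2) was -1.35 (SE 0.10). Of 24 tested oxidative phosphorylation subunits 8 were higher and 5 lower, median 0.07. At equal totals 20 were higher and 2 lower (median 0.36), and with quantile scaling 19 were higher and 3 lower (median 0.35), beside 7272 higher and 4518 higher of the 11557 rows on those scales. The subunit Uqcrfs1 was -0.67 (SE 0.13) with -0.69 under vehicle.

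Ribosomal protein genes had small differences whose direction turned with the scale. Of 32 tested 24 were lower and none higher, with a median of -0.22. At equal totals 2 were lower and 13 higher, with a median of 0.07, and with quantile scaling 1 was lower and 22 higher, with a median of 0.23. Rpl32, the member with the smallest adjusted p, was -0.63 (SE 0.06) with -0.56 under vehicle. Of 32 tested replication and mitosis genes 7 were higher, 3 lower and 22 not called, with a median of 0.07. At equal totals 20 were higher and none lower, with a median of 0.35. That higher share was near that of all rows on the same scale, 7272 of 11557, with a median of 0.28. Mcm5, of the replicative helicase, was higher by 0.50 (SE 0.06). Clock genes were divided, 8 lower and 5 higher of 17, beside 32.1% and 32.0% of all rows, with a median of -0.07. At equal totals 5 were lower and 10 higher, and the median became 0.21. Bhlhe40, a repressor in the clock, was 199 to 240 (median 220) in WT and 36.8 to 48.8 (median 44.8) in KO libraries, -2.30 (SE 0.07) with -0.93 under vehicle, whereas Cry2 was 0.77 (SE 0.06). Beside 32.0% of all rows called higher and 32.1% lower, the Wnt list had 6 higher and 6 lower of 15 tested. At equal totals it had 10 higher and 4 lower. Its target Sox9, a transcription factor of epithelial progenitors, was 98.7 ± 14.8 (SD, n = 6) in WT and 8.01 ± 0.807 (SD, n = 6) in KO libraries, -3.54 (SE 0.12), and the receptor gene Fzd4 was 1.55 (SE 0.11).

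Some genes changed sides between treatments. Of the 652 called in opposite directions, 404 were lower under agonist and higher under vehicle in KO cells and 248 the reverse. Ankrd1 (chromosome 19), a YAP and mechanical stress target, was 82.9 ± 13.1 (SD, n = 6) in WT and 270 ± 33.5 (SD, n = 6) in KO vehicle libraries, 1.70, and 902 to 1273 (median 1079) in WT and 204 to 317 (median 259) in KO agonist libraries, -2.06 (SE 0.11). Ankrd1 in KO cells was therefore at a like level in both treatments, agonist minus vehicle -0.06, while in WT cells it was 3.70 higher with agonist. Palld (palladin), which bundles actin, was 187 to 282 (median 227) in WT and 54.2 to 64.7 (median 59.5) in KO agonist libraries, -1.95 (SE 0.07) against 0.74 under vehicle. Ifrd1, a transcriptional co-regulator, was 1213 to 1838 (median 1499) in WT and 111 to 141 (median 132) in KO libraries, -3.55 (SE 0.11) against 0.40. By the naming rule Fosl1, Ccn1, Thbs1, Plk2 and Ppp1r15a also belonged to the 8 with the smallest interaction p, and each had been lower by at least 4-fold under agonist and higher under vehicle.

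Chromosomes differed in the balance of calls, with medians of the same sign with and without agonist on the chromosomes named here. Chromosome 6 had 64.3% of 527 rows lower and 13.1% higher in KO cells under agonist, with a median of -0.31 there and -0.33 under vehicle. On chromosomes 13 and 10, 56.0% and 52.2% of rows were lower, with medians of -0.25 and -0.18 under agonist and -0.18 and -0.16 under vehicle. Chromosome 8 was on the other side, with 60.1% of 631 rows higher and 15.5% lower, and medians of 0.22 and 0.17. After scaling to the same total the agonist medians were -0.02 for chromosome 6, 0.03 for 13, 0.10 for 10 and 0.50 for 8, beside 0.28 for all rows, so chromosomes 6, 10 and 13 remained below and 8 above all rows. Of the genes named here, Arpc4, Bhlhe40, Cav1, Dcp1b, Hk2, Parp11, Rpl32, Scnn1a, Tgfa and Zyx lie on chromosome 6, and Galnt7, Hmox1, Hsd11b2, Mcm5, Mt1, Mt2, Palld and Slc12a3 on chromosome 8. Akap12, Gadd45b, Hsp90b1, Phlda1, Tnfaip3 and Txnrd1 lie on chromosome 10, and Cltb, Edn1, Idi1, Klf6, Ocln, Plk2 and Uqcrfs1 on chromosome 13. The part of chromosome-wide differences in the difference of any gene was not tested.

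**Figure D5:**
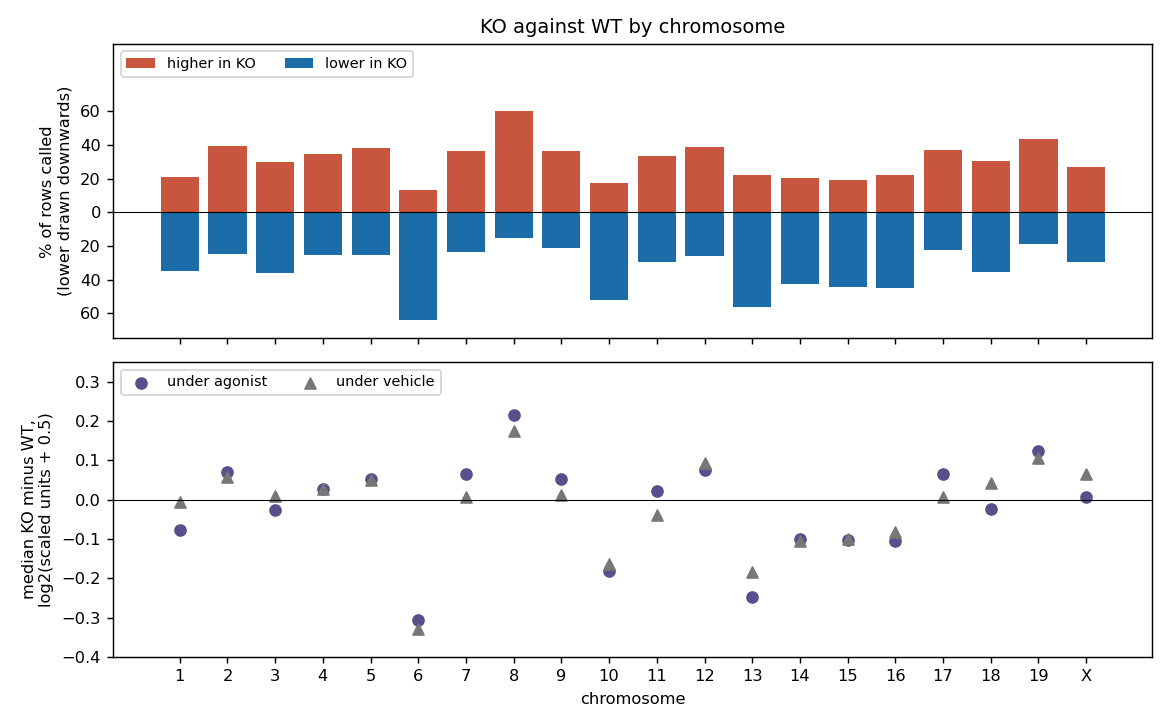
Share of tested rows called higher (red, upward) and lower (blue, drawn downward) in KO cells under agonist on each chromosome (top, percent), and median KO minus WT difference on the log2(scaled units + 0.5) scale (bottom; circles agonist, triangles vehicle). Chromosome 6 has the lowest medians (-0.31 and -0.33) and chromosome 8 the highest (0.22 and 0.17).

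Markers of other kidney and stromal cells were few. In these bulk libraries fewer cells of a type and less RNA per cell cannot be told apart. Of the 16 intercalated cell markers 6 were tested, 3 higher and 2 lower in KO cells. Car2 (carbonic anhydrase 2), which is not limited to those cells, was 194 to 268 (median 227) in WT and 356 to 450 (median 378) in KO libraries, 0.78 (SE 0.08) with 1.00 under vehicle. Of 18 proximal tubule markers 3 were tested, with 1 higher (Cyp4b1, 2.18, SE 0.13) and 1 lower (Lrp2, -1.02, SE 0.13). For the thick limb and distal tubule 5 of 14 markers were tested and 4 were higher. Slc12a3, the thiazide-sensitive cotransporter that defines the distal convoluted tubule, was 0.233 to 0.572 (median 0.478) in WT and 4.11 to 6.33 (median 4.48) in KO agonist libraries, 2.48 (SE 0.15) with 2.77 under vehicle. Of 16 fibroblast markers 2 were tested, among them Twist1 at 0.81 (SE 0.07), and Col1a1 lay between 0.811 and 3.27 in every agonist library. Both tested endothelial and immune markers, Cd68 and Csf1r, were lower in KO cells. Levels were also summed over the tested members of each list, which leaves out listed genes below the filter. For intercalated cells the sum ran from 290.4 to 387.9 in WT and 464.8 to 579.7 in KO libraries, with Car2 its largest part. It ran from 16.0 to 25.1 and 19.6 to 26.3 for proximal tubule. For thick limb and distal tubule it was 44.3 to 63.6 and 66.1 to 77.3, and for fibroblasts 8.11 to 12.7 and 15.0 to 18.7. The endothelial and immune sum was 65.6 to 80.0 and 51.0 to 57.5. The intercalated cell markers did not share a direction. The anion exchanger Slc4a1 of acid-secreting intercalated cells was 0 to 0.307 in WT and 0.502 to 1.06 in KO libraries. Atp6v1b1 was lower in KO cells, 48.7 to 65.2 in WT and 35.5 to 45.5 in KO libraries. Atp6v0a4 was 8.4 to 14.2 in WT and 7.56 to 9.16 in KO libraries, and Slc26a4 0.598 to 1.53 and 0.535 to 1.24, both with overlap. The part of other cell types in the differences between genotypes was not tested.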

How the data were processed

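In the table that the authors deposited, each of 12224 rows holds a signal for every library and a gene length in bases. GRCm39, STAR 2.7.8a, DESeq and DESeq2 are named per the submitters' processing notes, without roles; counting, strand and filters are not given in the sources used here. From the values, each deposited signal is a read count divided by a library factor (0.754 to 1.46), rounded to 0.1, and divided by gene length. The factors gave whole reads for at least 99.98% of a library's values within 0.05, and 29.8 to 51.9 M reads per library.

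The table was multiplied by 92.1 and rows with a mean of at least 1 were kept (11557). Of all rows, 393 shared a name and 333 joined several; these were tested but not named. limma 3.58.1 in R 4.3.3 was fitted to log2(scaled units + 0.5) of all 24 libraries with 4 group terms, trend and robust moderation and 20 residual degrees of freedom, two-sided, and tested on simulated data. Errors of single groups are SD.

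Gpr39, Aqp2 and Actb were always named, with the 12 highest and 12 lowest differences among called, non-overlapping genes with a mean of at least 5, up to 4 called members of each of 41 gene lists by smallest adjusted p, and the 8 opposite-direction genes with the smallest interaction p. Of 171 genes so chosen 118 are discussed, plus Dcp1b and Parp11; 1 gene list and some genes are not reported here; list members and markers without a test are given by level only. Members, lists and rules were chosen with earlier results of these data known. Lists were described by counts and medians, without a list test. The alternatives are pseudocount, filter, scaling, moderation, a fit of the agonist libraries alone, a replicate block, voom, a 1.5-fold minimum and leaving out each library. Chromosomes are those in the table's row names. Intervals and floors of 3 reads cover counting error only.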

Additional observations from a re-analysis of the deposited data

Results flagged for a closer look

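The genotype difference itself differed between treatments, by limma's interaction test (KO minus WT under agonist less KO minus WT under vehicle, adjusted p below 0.05 over all rows), in 94 of the 120 genes covered here, beside 41.1% of all rows. That share follows from the choice of genes, which were taken for small adjusted p or far differences under agonist, and 8 of them for the smallest interaction p itself. Among secreted ligands and cytokines, the interaction in log2 was Cxcl2 -6.36, Cxcl1 -5.40, Lif -5.55, Il1a -5.06, Tnf -3.91, Areg -5.53, Ereg -4.27, Hbegf -3.10, Adm -4.15 and Edn1 -1.88. For the prostaglandin genes it was Ptgs2 -3.75 and Ptger4 -3.32. Among genes of the AP-1 and immediate-early lists, the interaction in log2 was Fosb -4.94, Fosl1 -4.68, Fosl2 -2.51, Maff -3.13, Nr4a1 -3.51, Arc -3.07, Klf6 -2.26 and Egr3 -2.51. Among feedback and signalling genes, the interaction in log2 was Dusp5 -4.43, Dusp10 -2.48, Phlda1 -3.80, Errfi1 -2.77, Tnfaip3 -5.15, Nfkbia -1.69, Nfkbid -2.78, Stat3 -0.73, Socs3 -0.66, Sik1 -2.16, Akap12 -1.76, Pde4b -1.98 and Rcan1 -1.64. Among actin and adhesion genes, the interaction in log2 was Actb -1.72, Srf -2.18, Zyx -2.05, Vcl -1.66, Arpc4 -0.70, Actr3 -1.19, Lima1 -0.79, Ezr -0.73, Rnd1 -3.39, Cdc42ep3 -2.57, Cdc42ep1 -1.46, Fermt2 -1.21, Itgav -1.56 and Palld -2.69.

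Among YAP, TGF-beta, matrix and junction genes, the interaction in log2 was Ccn1 -3.74, Ankrd1 -3.76, F3 -2.49, Gadd45b -1.89, Id3 -3.74, Tgif1 -1.92, Adamts1 -3.52, Plaur -2.81, Mmp13 -1.67, Thbs1 -2.94, Cldn1 -2.74, Ocln -0.81 and Krt18 -1.58. Among stress genes, the interaction in log2 was Hspa5 -3.16, Hsp90b1 -1.25, Manf -1.45, Ppp1r15a -2.67, Hspb1 -1.49, Cdkn1a -1.70, Plk3 -2.74, Plk2 -2.64, Txnrd1 -1.41 and Hmox1 -2.15. Among metabolic, trafficking and other genes, the interaction in log2 was Idi1 -0.69, Slc2a1 -1.60, Hk2 -1.48, Bhlhe40 -1.37, Sox9 -3.64, Ifrd1 -3.95, Cav1 -1.23, Cltb -0.41, Foxo1 -0.87, Lce3c -4.78 and Gpr39 -0.43. In the opposite direction, the interaction was Txnip 2.62, Ackr3 1.84, Pik3ip1 1.06, Irf1 0.97, Cyp1b1 0.94, Fzd4 0.77, Mt2 0.67, Mt1 0.58, Oas1f 0.57, Id2 0.51, Slc30a1 0.46, Tap1 0.44 and Cry2 0.41. With the same total in every library 92 of the 94 were called in the same direction, the others being Gpr39 and Cltb. The Oas1f interaction was not called with a pseudocount of 2, with quantile scaling, with voom, or without any 1 of KO agonist libraries 2, 3, 4 and 5 or WT agonist libraries 1, 2, 3 and 6.

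In 9 of 240 groups of 6 libraries looked at, 1 library lay far from the other 5 by Dixon's criterion, which chance meets in about 1 group in 20. KO agonist library 2 was the highest of its group for Hsd11b2 (317 scaled units), Cyp1b1 (40.3), Egr3 (16.7) and Cdc42ep3 (24.4). The others were Pde4b in KO agonist library 3 (3.61), Tnf in KO agonist library 1 (0.312) and WT agonist library 4 (8.38), Twist1 in WT agonist library 5 (7.3) and Parp11 in WT agonist library 2 (1.98). All 9 lie on their own group's side of the gap between genotypes, and each of these genes was called in the same direction without that library.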

How the results depend on the processing

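The 120 named genes had the same direction and call under every setting run: pseudocounts of 0.1 and 2, no filter, median ratio, quantile and same-total scaling, a fit of the 12 agonist libraries alone, a replicate block, plain moderation with neither trend nor robust settings, voom on recovered reads and each of the 12 libraries left out. With a mean of at least 5 scaled units required, 112 of them were tested and all 112 did so.

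Counts of calls depended on the scale. With the same total in every library 7272 rows were called higher and 1726 lower in KO cells under agonist, and the interaction was called in 7545. Requiring a difference of at least 1.5-fold besides left 2093 calls, 898 higher and 1195 lower. Leaving out 1 library gave 7124 to 7272 calls, with 3533 to 3613 higher and 3583 to 3666 lower, and 4465 to 4728 interaction calls. Rows called in both treatments numbered 3286 to 3409 in the same direction and 590 to 648 in opposite directions. With a replicate block 7404 rows were called under agonist and 4732 for the interaction. No pairing of the libraries by number was seen. Deviations of same-numbered WT and KO agonist libraries correlated at 0.18, 0.21, -0.01, -0.04, -0.03 and 0.11. Only 1 of 6 correlated best with its own number, but a weak pairing could be missed this way. edgeR and DESeq2 were not run, since the deposited values are not counts. Depth limits the genes near 0 in KO cells, such as Tnf, Il1a and Lce3c, whose fold changes and interactions depend on the pseudocount.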

Other observations

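Lce3c, a cornified envelope gene of skin, was among the 12 furthest lower genes although mpkCCD is a kidney line. It was 14.3 to 26.2 (median 18.6) scaled units in WT agonist libraries, where it had 38 to 78 reads per library, and the 6 KO agonist libraries together held 2 reads. Under vehicle Lce3c was 0.920 ± 0.687 (SD, n = 6) in WT and 0.703 ± 0.707 (SD, n = 6) in KO libraries.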
